A study of Mus musculus with 16 samples.

Results

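Pmel CD8+ T cells taken from skin were compared with Pmel CD8+ T cells taken from the draining lymph node of the same kind of mouse, gene family by gene family. Pmel cells carry a transgenic T cell receptor for gp100, a protein of pigment cells and melanomas, and are marked by Thy1.1. The cells were chosen by the tissue that their column names carry: 1224 cells from skin and 1625 from lymph node, 2849 of the 5727 cells in the deposited table. Of the 9223 genes in the table, 8961 had at least 20 counts summed over both tissues and are called measured here.

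All groups came from C57BL/6 mice aged 16 weeks with melanoma-associated vitiligo, the autoimmune loss of pigment cells that follows an immune response to melanoma, 45 days after surgery for the tumor. The series also holds lung and liver cells, which are given only where a sum over a gene list is set beside skin and lymph node. Lymph nodes were dissociated mechanically and filtered, whereas skin was cut up and treated with the enzymes collagenase IV and DNase, per the labels' protocols. Each tissue has 4 samples whose titles differ only by a lane-like ending, so each tissue was treated as 1 library, no difference was tested and tissue, preparation and library cannot be told apart.

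Memory CD8+ T cells that settle in skin remain beside the epithelium and react to antigen on the spot. Many memory cells in lymph nodes, though not all, recirculate and respond after a delay. Engagement of the T cell receptor opens calcium, MAP kinase and NF-kB pathways, which switch on transcription factor genes within minutes and then a layer of feedback inhibitors that shorten the response. Interferons act through JAK kinases and STAT factors on a separate set of antiviral genes. In many cell types, enzymatic digestion of tissue at warm temperature is itself known to switch on immediate early and heat shock genes.

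The skin cells held 3292210 counts (median 2518 per cell) and the lymph node cells 4532333 (median 2649). All 10 CD8+ T cell markers looked for were present in both tissues, at 27885 CPM (counts per 1000000 counts of the pooled cells) in skin and 28253 in lymph node. Of 8 keratinocyte markers 3 were in the table, and they summed to 39.8 CPM for skin and 22.3 for lymph node, and no melanocyte, fibroblast or mast cell marker looked for was in it. Of 5 B cell markers in the table, 2 were at 0 in skin and 0 were at 0 in lymph node, and they summed to 10.02 CPM and 39.7. At equal depth the B cell gene Ighm was found in 0.926% of skin and 1.88% of node cells, and a share no higher than that may be free RNA rather than expression. Other markers were more widespread: the myeloid list gene Cst3 was found in 37.9% of skin and 35.4% of node cells and the dendritic list gene Cd74 in 19% of skin and 21% of node cells, while the myeloid genes Csf1r and Adgre1 were at 0 in both tissues. Some markers were lower in skin. The myeloid gene Lyz2 had 0 counts in skin and 32 in the node, and the natural killer gene Tyrobp had 2 and 22. The dendritic list genes H2-Ab1 and H2-Aa, uncertain because of shared sequence, stood at 17.3 and 7.9 CPM in skin against 35.1 and 22.5 in the node. The endothelial gene Pecam1 stood at 6.38 CPM in skin against 13.9 in the node. The natural killer gene Fcer1g, at 18 and 22 counts, was not called. The part of other cells in the results was not tested. The tissues shared 4 cell barcodes, and 27 skin and 8 lymph node cells were called doublets.

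A ratio is the pooled CPM of skin over that of lymph node, with an exact 95% interval in brackets for the noise of counting alone, which leaves out how mice or libraries vary. A gene is called when the ratio is at least 2-fold and the interval excludes equality. By this rule 493 genes (5.5% of those measured) were higher in skin and 884 (9.86%) were lower. Counts of called members in each list below are to be read against these shares. The lower calls were more often low genes, and the median log2 ratio over all measured genes was -0.20, with 35.9% of ratios above 1. Under a size factor that sets this median near 0, 635 genes were called higher and 588 lower, so a list's median is best read against the median of all genes. Lists whose median lay between about -0.2 and 0 change sign between these scalings, and no direction is given for them.

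Of the 493 genes called higher, 217 belonged to at least 1 of the 51 gene lists examined, and of the 884 called lower, 129 did. The 100 families picked by gene symbol were left out of this count. The share of all measured genes that belong to a list was not counted. The plot of list members shows a selection of the lists and families.

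Several genes of the NF-kB pathway, inhibitors and subunits among them, were higher in skin. Of the NF-kB list, 8 of 22 measured members were called higher in skin and 0 lower, against the 5.5% and 9.86% of all measured genes, with a median log2 ratio of 0.50. Of the 22, 15 had a ratio above 1 and 7 below. Nfkbia, which encodes the inhibitor that holds NF-kB in the cytoplasm, stood at 3708 CPM in skin against 373 in the node, 9.94-fold higher (9.45 to 10.5). The list summed to 6446 CPM in skin and 1392 in the node, so Nfkbia made up most of the skin sum. Nfkbid, a nuclear inhibitor family member, stood at 549 CPM in skin against 33.8 in the node, 16.3-fold higher (13.8 to 19.3). Both were higher in skin by more than their counting error. Tnfaip3, which encodes the ubiquitin-editing enzyme A20 that ends NF-kB signaling, stood at 933 CPM in skin against 111 in the node, 8.41-fold higher (7.65 to 9.26). Nfkbiz was 7.99-fold higher, while the inhibitor genes Nfkbib and Nfkbie had ratios of 1.83 (1.53 to 2.19) and 0.71 (0.492 to 1.01) and were not called. Among the subunits, Rel, the lymphocyte subunit, was 4.33-fold higher (3.5 to 5.39) and Nfkb1 2.13-fold higher, whereas Rela had a ratio of 0.763 (0.618 to 0.94) and was not called. Birc3 and Malt1, which act upstream of the kinase that frees NF-kB, were 2.28-fold and 2.02-fold higher.

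At equal depth, with every cell thinned to 1898 counts, Nfkbia was found in 93% (91.3 to 94.4) of skin and 36.7% (34.3 to 39.2) of node cells. Shares of cells below are at equal depth unless all counts are named. The whole NF-kB list had a median of 11 counts in a skin cell and 2 in a lymph node cell. Of the skin cells, 80.6% held more counts of the list than the 90th percentile of lymph node cells. The difference in this sum was thus spread over most skin cells. Nfkbia made up most of the sum in skin, so these counts largely follow that gene.

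A list of MAP kinase feedback genes, which holds inhibitors, activators and kinases of the pathway, stood higher in skin. Of 18 measured members, 11 were called higher and 1 lower, with a median log2 ratio of 1.29. Gadd45b, a stress-inducible gene that was placed in this list, stood at 1303 CPM in skin against 42.6 in the node, 30.6-fold higher (26.5 to 35.5). Its relatives Gadd45g and Gadd45a were 10.6-fold and 8.13-fold higher. The phosphatase genes Dusp1 and Dusp5, whose products remove the activating phosphates of MAP kinases, stood at 1394 CPM in skin against 251 in the node and at 585 CPM in skin against 88.3 in the node. They were 5.55-fold higher (5.2 to 5.92) and 6.63-fold higher (5.95 to 7.4). Dusp4, Dusp6 and Dusp10 were 6.61-fold, 2.14-fold and 2.63-fold higher. Spry1 and Spry2, inhibitors of receptor signaling to Ras, were 3.93-fold and 4.13-fold higher, each at under 13 CPM. Map2k3, a kinase that activates p38, was 2.26-fold higher. Rasa3, which encodes a Ras inhibitor at the membrane, was the member called lower, 3.43-fold lower (2.29 to 5.32).

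Genes of the receptor apparatus itself differed little. Of 35 measured members of proximal T cell receptor signaling, 1 was called higher and 3 lower. Ptpn22, a phosphatase that dampens receptor signals, was 2.14-fold higher (1.96 to 2.33). The lower genes were Dgka and Dgkz, which encode kinases that remove the second messenger diacylglycerol, and Txk, a kinase of the Tec family. Dgka was 3.0-fold lower (2.33 to 3.91), Dgkz 2.29-fold and Txk 3.46-fold lower. In the calcium list Orai1, the calcium entry channel, was 2.42-fold higher (2.09 to 2.81) and Atp2b1, a pump that expels calcium, 2.25-fold higher (1.97 to 2.58).

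Targets of cyclic AMP and CREB included 10 of 22 members called higher and 0 lower (median log2 ratio 0.70). Crem, which encodes a repressor and activator of the same element, stood at 495 CPM in skin against 26.3 in the node. Sik1, a kinase that restrains CREB coactivators, was 7.79-fold higher (5.75 to 10.7). Pde4b and Pde4d, phosphodiesterases that degrade cyclic AMP, were 2.89-fold and 5.51-fold higher.

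Genes that shorten the life of messenger RNA formed a split list. Of 26 members, 8 were called higher and 2 lower. The higher ones were inducible binding proteins and antiproliferative adaptors: Zfp36 stood at 501 CPM in skin against 73 in the node, 6.86-fold higher (6.09 to 7.75). Zfp36l1 and Zfp36l2 were 4.24-fold and 2.49-fold higher. Zc3h12a, which encodes the endonuclease Regnase-1 that cleaves cytokine messages, was 7.21-fold higher (5.87 to 8.94). Btg2 and Tob1, which recruit the deadenylase complex, were 4.83-fold and 6.08-fold higher, and Btg1 stood at 4259 CPM in skin against 2002 in the node. Zc3h12d and Rc3h2 were 2.11-fold and 2.04-fold lower.

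Btg2 and Dusp1, both called higher in skin, are shown as examples of promoter windows that hold the 8-letter cyclic AMP response element TGACGTCA. The element was found in 1 of 16 windows of MAP kinase feedback genes and in 0 of 16 of NF-kB genes. The windows are the 250 bases before the annotated start in RefSeq GRCm38.p6, 5′ to 3′ on the gene's strand, with matches in capitals. Btg2 lies on the minus strand with its window at chr1:134079156-134079405, and Dusp1 on the minus strand at chr17:26508473-26508722.
Btg2: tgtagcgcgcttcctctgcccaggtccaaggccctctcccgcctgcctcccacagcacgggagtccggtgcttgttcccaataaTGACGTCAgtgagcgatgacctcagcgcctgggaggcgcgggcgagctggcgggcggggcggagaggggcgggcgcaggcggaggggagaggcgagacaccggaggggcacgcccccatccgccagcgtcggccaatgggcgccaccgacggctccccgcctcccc
Dusp1: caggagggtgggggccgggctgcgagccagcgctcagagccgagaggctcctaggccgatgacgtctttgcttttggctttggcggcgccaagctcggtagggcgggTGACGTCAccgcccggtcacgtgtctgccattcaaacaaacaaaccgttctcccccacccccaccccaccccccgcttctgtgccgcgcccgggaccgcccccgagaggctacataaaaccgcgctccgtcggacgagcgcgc
The first match lay 166 bases before the start of Btg2 and 143 before that of Dusp1. Of 8961 measured genes, 6901 had such a window, and 3.07% of these held TGACGTCA on either strand, against 4.85% of 371 genes called higher and 2.34% of 684 called lower. The AP-1 element TGANTCA was in 3.90% of all, 6.74% of the higher and 3.36% of the lower genes, and TATAAA in 5.62%, 10.5% and 5.12%. The Ets element CCGGAAG ran the other way, in 16.8% of all windows and 10.5% of those of genes called higher. These are counts of letters and not of bound sites.

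Nearly every skin cell carried stimulation counts. Of 24 measured stimulation genes, 22 were called higher in skin and 1 lower, the last at a log2 ratio of -1.39. At least 1 count of Fos, Fosb, Nr4a1, Egr1, Atf3 or Nr4a3 was found in 97.3% of skin (96.2 to 98.1) and 17.4% of node cells (15.6 to 19.3) with all counts of each cell, and in 96.1% and 14.7% at equal depth. Comparing the 1191 skin cells with the 283 lymph node cells that held such counts, an alternative added after the data were seen, left 467 genes called higher and 625 lower. Of the 493 and 884 genes called with all cells, 362 and 446 were called there too. In skin, most of the summed CPM of NF-kB genes was Nfkbia. That sum was 4.63 times that of lymph node over all cells and 3.97 times in cells with stimulation counts. The corresponding ratios were 4.87 and 3.26 for MAP kinase feedback, and 3.41 and 2.23 for the stimulation genes themselves. The part of digestion in these differences was not tested.

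**Figure D1:**
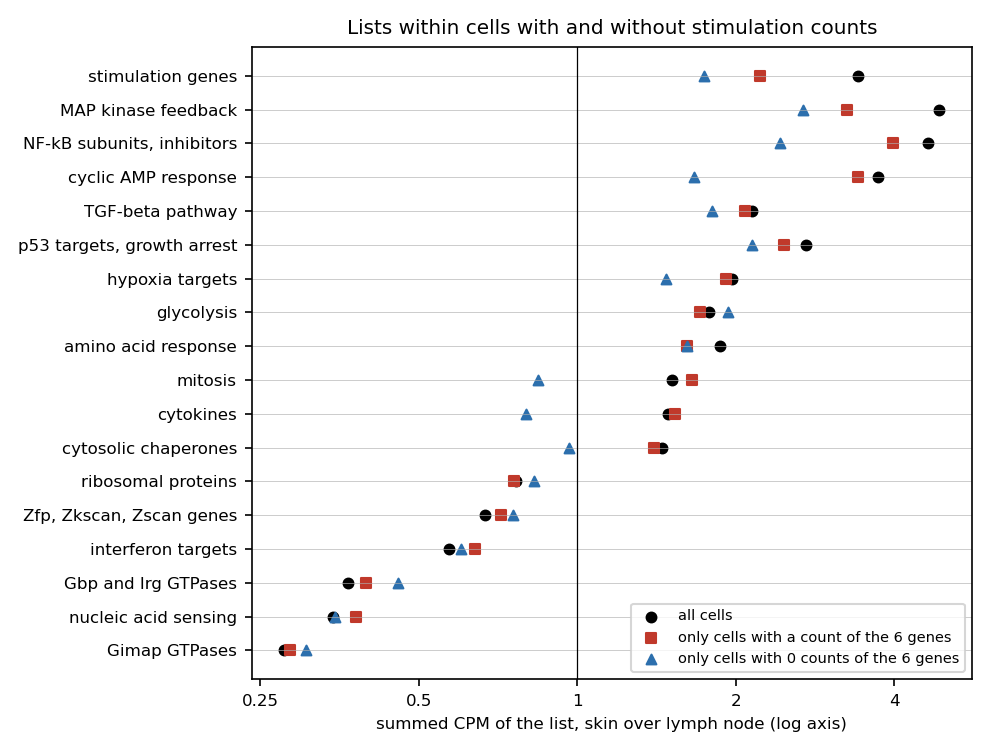
Summed CPM of each list in skin divided by that in lymph node, on a log axis, over all cells (circles), over the 1191 skin and 283 lymph node cells with a count of 6 stimulation genes (squares), and over the 33 skin and 1342 lymph node cells with none (triangles). Glycolysis, TGF-beta pathway and p53 target sums lay above 1, and interferon, nucleic acid sensing and Gimap sums below 1, in all 3 sets of cells, whereas mitosis, cytokines and cytosolic chaperones lay below 1 in the set with 33 skin cells.

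Il13 and Areg had the largest ratios among the cytokine genes. Of 22 cytokine genes, 10 were called higher and 4 lower, with a median log2 ratio of 0.69. Il13, the gene of interleukin-13, stood at 53.8 CPM in skin and had 0 counts in the node, at least 81.2-fold higher when the lymph node is set at 3 counts over the tissue. It was found in 6.57% of skin cells at equal depth and in 0 of 1487 lymph node cells, where 3 cells would be 0.202%. Areg, which encodes the epithelial growth factor amphiregulin, stood at 71.4 CPM in skin against 0.883 in the node, 80.9-fold higher (31.2 to 299). Both were found in under 10% of skin cells. Csf2, the gene of GM-CSF, was 7.47-fold higher (4.66 to 12.5), and the TNF family ligands Tnfsf9 and Tnfsf11 (RANKL) were 10.3-fold and 7.22-fold higher. Il2 stood at 152 CPM in skin against 53.6 in the node and Tgfb1 at 347 CPM in skin against 154 in the node.

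Of the cytokine genes called lower in skin, Ltb, which encodes lymphotoxin beta that organizes lymphoid tissue, stood at 689 CPM in skin against 1939 in the node, 2.82-fold lower (2.69 to 2.95), and was found in 58.1% of skin and 91.1% of node cells. Il16, a chemoattractant of T cells, was 4.38-fold lower (3.6 to 5.37), and Osm, which encodes oncostatin M, 7.38-fold lower. In a list of wound repair and type 2 genes that also holds Il13, Areg and Osm, 5 of 13 were called higher and 2 lower (median log2 ratio 0.57).

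Receptor genes were called in both directions. Of 23 cytokine receptor genes, 3 were called higher and 2 lower: Ifngr1, a chain of the interferon gamma receptor, stood at 379 CPM in skin against 108 in the node, 3.52-fold higher (3.17 to 3.91). Il2ra, the high-affinity chain for interleukin-2, was 2.79-fold higher (1.9 to 4.13), and Il15ra, which presents interleukin-15, was 2.29-fold lower (1.47 to 3.67). Of 15 chemokine receptor genes, 3 were called higher and 4 lower. Cxcr4, which guides cells to CXCL12, was 4.37-fold higher (3.17 to 6.11), and Cx3cr1 2.73-fold higher (2.27 to 3.29). Ccr10, whose ligand is made by keratinocytes, stood at 48.9 CPM in skin against 180.5 in the node, 3.69-fold lower (3.11 to 4.4), and was found in 7.13% of skin and 22.1% of node cells. Gpr183 and P2ry10, receptors for an oxysterol and a lysophospholipid, were 2.42-fold and 5.21-fold higher.

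Of 26 costimulatory and coinhibitory genes, 8 were called higher and 3 lower. Icos stood at 325 CPM in skin against 88.9 in the node, 3.65-fold higher (3.25 to 4.11), and Ctla4 at 44 CPM in skin against 9.05 in the node, 4.87-fold higher (3.42 to 7.07). Izumo1r, which encodes folate receptor 4, stood at 0.304 CPM in skin against 45.2 in the node, 149-fold lower (26.4 to 5910). At equal depth Izumo1r was found in 4.98% of lymph node cells and in 0 of 1080 skin cells, where 3 cells would be 0.278%. With all counts it was found in 0.0817% of skin cells. Cd200 was 15.1-fold lower (5.67 to 56.6). Killer lectin-like receptors showed 0 called higher and 2 lower of 10, the lower genes being their ligands Clec2d (2.47-fold) and Clec2i (4.11-fold).

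In the TGF-beta pathway, 9 of 22 members were called higher and 0 lower (median log2 ratio 0.65), and the higher ones included inhibitors of the pathway. Tgif1 and Skil, corepressors of SMAD transcription, stood at 221 CPM in skin against 16.8 in the node and at 152 CPM in skin against 27.6 in the node. Smad7, the inhibitory SMAD, was 3.56-fold higher (3.03 to 4.21), and Pmepa1 and Ldlrad4, which trap receptor-regulated SMADs, were 4.84-fold and 3.97-fold higher. Furin, the protease that matures TGF-beta, was 6.27-fold higher (5.01 to 7.92). The list's summed CPM was 2.08 times that of lymph node within cells that held stimulation counts and 2.15 times over all cells.

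Among 45 T cell transcription factor genes, 6 were called higher (13.3%) and 5 lower (11.1%), against 5.5% and 9.86% of all measured genes. Tbx21, which encodes T-bet, stood at 189.8 CPM in skin against 58.9 in the node, 3.22-fold higher (2.79 to 3.73). Bhlhe40, which encodes a transcriptional repressor, stood at 309.8 CPM in skin against 81 in the node, 3.83-fold higher (3.39 to 4.32). Irf4, induced in proportion to receptor signal strength, was 5.0-fold higher (3.41 to 7.49), and Irf8 6.6-fold higher. Id2, an inhibitor of E proteins that is needed by effector cells, stood at 888 CPM in skin against 2468 in the node, 2.78-fold lower (2.67 to 2.89), and was found in 67.8% (64.9 to 70.6) of skin and 94.2% (92.9 to 95.3) of node cells. Klf3 and Satb1 were 7.02-fold and 2.08-fold lower. Lef1, a factor of naive and early memory cells, stood at 0.304 CPM in skin against 13.9 in the node, and it was found in 1.75% of node cells, a share no higher than that of Ighm.

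Part of the enzymes of sugar use were called higher in skin, and those of mitochondrial respiration were rarely called. Of 26 glycolysis genes, 7 were called higher and 1 lower, with a median log2 ratio of 0.50. Eno1 stood at 736 CPM in skin against 337 in the node, 2.18-fold higher (2.04 to 2.33). Tpi1 and Pgk1 were 3.23-fold and 2.19-fold higher. Hk2, the inducible hexokinase, was found in 11.9% of skin and 0.538% of node cells, and Slc16a3, the lactate exporter, was 7.76-fold higher at 18.8 CPM. Ldhb, the lactate dehydrogenase chain that favors pyruvate, was the 1 gene called lower, 4.03-fold lower (2.1 to 8.49). A skin cell held a median of 9 glycolysis counts at equal depth and a lymph node cell 6.

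Of 19 hypoxia targets, 7 were called higher and 0 lower (median log2 ratio 0.65). Hilpda, which inhibits the lipase of lipid droplets, stood at 306 CPM in skin against 25.6 in the node, 11.9-fold higher (9.84 to 14.6), and P4ha1, Ankrd37 and Ndrg1 were 3.22-fold, 3.99-fold and 3.47-fold higher. None of 26 tricarboxylic acid cycle genes was called in either direction by the 2-fold rule, and their sum was 1933 CPM in skin and 1916 in lymph node. Of the nuclear genes of complexes I to V and their assembly, 44, 4, 9, 11 and 17 genes, 1 was called, the assembly factor Ndufaf1, 2.71-fold lower (1.67 to 4.55). Of 13 mitochondrially encoded genes 1 was called, mt-Atp8, which encodes a subunit of ATP synthase and was 2.64-fold higher (2.27 to 3.07), a value that is uncertain because the gene overlaps mt-Atp6.

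Of 34 sterol genes, 7 were called higher and 1 lower (median log2 ratio 0.32). Insig1, which holds the sterol sensor in the endoplasmic reticulum, stood at 79.9 CPM in skin against 15.7 in the node, 5.1-fold higher (3.91 to 6.73). The synthesis enzymes Idi1, Fdps, Sc5d and Cyp51 were 3.85-fold, 2.35-fold, 2.35-fold and 2.35-fold higher. Soat2, which esterifies cholesterol, was 3.42-fold lower (2.01 to 6.16). In fatty acid metabolism 4 of 30 genes were called higher and 3 lower (median log2 ratio -0.02). Dgat1, which builds triglyceride, was 4.0-fold higher (3.19 to 5.04). The lower genes, Cpt1a, Cpt2 and Decr1, of mitochondrial entry and oxidation, were 2.81-fold, 2.18-fold and 3.31-fold lower, each at under 15 CPM in both tissues, and other oxidation genes of the list, such as Acadm and Hadha, were not called.

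Genes of the amino acid response that ATF4 drives were called higher for 10 of 24 members and lower for 0 (median log2 ratio 0.47). Slc38a2, a glutamine carrier, stood at 293 CPM in skin against 54.3 in the node, 5.41-fold higher (4.7 to 6.24). Slc7a5 and Slc3a2, the chains of the large neutral amino acid carrier, were 4.63-fold and 2.2-fold higher. None of the 20 aminoacyl-tRNA synthetases, many of them also ATF4 targets, was called in either direction. Within the 1191 skin and 283 lymph node cells with stimulation counts, 5 members of the amino acid response list were called higher. Over all 8247 genes measured in those cells, 467 were called higher, and fewer cells limit what can be called. Odc1, the first enzyme of polyamine synthesis, stood at 278 CPM in skin against 77.4 in the node, 3.59-fold higher (3.17 to 4.07), and Tfrc, the transferrin receptor, was 10.6-fold higher at 14 CPM, the 1 member called of 21 genes of iron and heme.

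Of 37 cytosolic chaperone genes, 3 were called higher (8.11%, against 5.5% of all measured genes) and 1 lower. Dnaja1 stood at 1030 CPM in skin against 397 in the node, 2.59-fold higher (2.45 to 2.75). Hspa1a and Hspa1b, near-identical copies whose values are uncertain, were 3.48-fold and 2.77-fold higher. Of 35 secretory chaperone and unfolded protein response genes, Hspa5 (BiP) was the 1 called, 2.36-fold higher (2.23 to 2.5). Of 37 oxidative stress genes, 4 were called higher and 1 lower. Metallothionein Mt1 and the autophagy adaptor Sqstm1 were 3.29-fold and 2.68-fold higher, and Txnip, which inhibits thioredoxin and glucose uptake, stood at 93.3 CPM in skin against 299 in the node, 3.21-fold lower (2.83 to 3.64).

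Of 28 p53 targets and growth arrest genes, 9 were called higher and 0 lower. Cdkn1a, the gene of the cell cycle inhibitor p21, stood at 578 CPM in skin against 15.7 in the node, and was found in 49.5% of skin and 2.76% of node cells. Plk2 and Plk3, polo-like kinases of the stress response, were 12-fold and 5.51-fold higher (4.21 to 7.29). Perp was 4.18-fold higher; it is also a keratinocyte marker, while the keratinocyte genes Krt10 and Epcam had ratios of 1.05 (0.655 to 1.66) and 0.688 (0.335 to 1.35). Bcl2 family and death genes gave 8 calls higher and 4 lower of 37. Pmaip1 (NOXA) was 4.24-fold higher (3.45 to 5.26) and Bcl2l1, which encodes Bcl-xL, 2.14-fold higher. Bcl2a1b and Bcl2a1d, near-identical copies of the survival gene A1 whose values are uncertain, were 5.4-fold and 6.73-fold higher, whereas Bcl2 was 2.14-fold lower (1.62 to 2.85) and Casp1 2.78-fold lower.

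Lmna, the gene of the nuclear lamins A and C, stood apart from its structural list. It was at 1165 CPM in skin against 97.5 in the node, 11.9-fold higher (10.8 to 13.2), and was found in 77.6% (75 to 80.05) of skin and 14.2% (12.5 to 16.1) of node cells. Of 58 actin and migration genes, the other gene called was Vim, the intermediate filament vimentin, 2.17-fold higher (2.09 to 2.25). The annexins Anxa2 and Anxa1 stood at 648 CPM in skin against 180.5 in the node and at 468 CPM in skin against 182 in the node, and Lgals1 (galectin-1) at 7748 CPM in skin against 3603 in the node. Among 63 genes of DNA and histone modification, 4 were called higher (6.35%, near the 5.5% of all measured genes) and 1 lower. Kdm6b, which removes the repressive mark H3K27me3, stood at 400.0 CPM in skin against 34.9 in the node, 11.5-fold higher (9.72 to 13.6), and Kdm2b was 3.51-fold higher.

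Mitosis genes were higher in skin, and so was the share of cells with cell cycle counts. Of 56 members, 32 were called higher and 0 lower (median log2 ratio 1.25). Cells with at least 2 counts of 12 cycling genes made up 6.13% of skin (4.85 to 7.62) and 2.83% of node cells (2.08 to 3.76) with all counts, and 5.37% and 1.61% at equal depth. The skin cells so chosen held a median of 4228 counts. Without these cells the median was -0.01, and the summed CPM of the list was 1.03 times that of lymph node instead of 1.51. Because the cells were chosen by counts that include members of the list, such as Cenpf and Nusap1, a fall is built into this comparison. Cks2 stood at 151 CPM in skin against 28.7 in the node, and Cenpf and Nusap1 were 9.36-fold and 7.51-fold higher. S-phase genes gave 7 calls higher and 0 lower of 45, with Rrm2, a ribonucleotide reductase chain, 3.55-fold higher (2.84 to 4.47).

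Antiviral and interferon-inducible families were lower in skin. Of 32 nucleic acid sensing genes, 27 were called lower and 0 higher, with a median log2 ratio of -1.49. Samhd1, a nucleotide hydrolase that starves viruses, stood at 89 CPM in skin against 291 in the node, 3.27-fold lower (2.88 to 3.72). Pyhin1 and Parp14 were 4.07-fold and 4.28-fold lower. The sensors Ifih1 (MDA5) and Dhx58 (LGP2), and Eif2ak2, the double-stranded RNA kinase, were 6.64-fold, 4.08-fold and 3.85-fold lower. Of 14 guanylate binding and immunity-related GTPases, 12 were called lower and 0 higher (median log2 ratio -1.45). Ifi47 stood at 48.9 CPM in skin against 258 in the node, 5.27-fold lower (4.47 to 6.25), and Igtp and Irgm1 were 2.91-fold and 3.53-fold lower. Gbp2, Gbp4 and Gbp7 share sequence with each other, and their ratios of 2.19-fold, 2.11-fold and 2.39-fold lower are uncertain.

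Of 43 interferon targets, 26 were called lower and 4 higher. The 4 higher were Cxcl10 (5.76-fold), Irf8 (6.6-fold), Socs1 (2.4-fold) and Ifitm2 (2.43-fold, uncertain because of its relatives). Socs1, the inhibitor of JAK kinases, stood at 234 CPM in skin against 97.5 in the node. Usp18 and Mx1 were 8.23-fold and 6.03-fold lower. Class I antigen presentation, also an interferon target in many cells, differed less: 0 of 22 genes were called higher and 1 lower, Psmb10, 2.12-fold lower (1.89 to 2.37).

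Cells with at least 5 counts of 12 interferon genes made up 13.7% of node cells (12.03 to 15.4) and 3.27% of skin cells (2.34 to 4.42) with all counts, and 9.89% and 1.76% at equal depth. Without those cells 19 of 31 nucleic acid sensing genes were still called lower, and the median log2 ratio was -1.24. A skin cell held a median of 9 counts of the interferon target list at equal depth and a lymph node cell 17. Summed over the interferon target list, the levels were 6409 CPM in skin, 11223 in lymph node, 19221 in lung and 17210 in liver. The family of Ifit and Ifitm genes, several of them in this list, stood at 11485 CPM in lung and 9097 in liver. The same family was at 1583 CPM in lymph node and 1561 in skin. The higher lung and liver levels of the list thus need not hold for its other members. Nucleic acid sensing genes summed to 806 CPM in skin, 2352 in lymph node, 1607 in lung and 1648 in liver. For guanylate binding and immunity-related GTPases the sums were 411, 1122, 600 and 627 CPM in the same order. Lung and liver libraries are set beside the others for their values only.

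Ifit3 and Ifit1, interferon-induced RNA-binding proteins, are shown because their windows hold the element to which interferon-activated factors bind. The element searched was GAAA, any 2 bases and GAAA again, on either strand, so that a match on the opposite strand reads TTTC, 2 bases and TTTC, in capitals below. The Ifit3 window is chr19:34583279-34583528 and the Ifit1 window chr19:34640639-34640888, both on the plus strand of chromosome 19.
Ifit3: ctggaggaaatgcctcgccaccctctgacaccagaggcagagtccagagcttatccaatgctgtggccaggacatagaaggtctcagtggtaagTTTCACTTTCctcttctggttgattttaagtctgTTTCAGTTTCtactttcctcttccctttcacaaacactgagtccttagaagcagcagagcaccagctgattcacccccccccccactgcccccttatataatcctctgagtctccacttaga
Ifit1: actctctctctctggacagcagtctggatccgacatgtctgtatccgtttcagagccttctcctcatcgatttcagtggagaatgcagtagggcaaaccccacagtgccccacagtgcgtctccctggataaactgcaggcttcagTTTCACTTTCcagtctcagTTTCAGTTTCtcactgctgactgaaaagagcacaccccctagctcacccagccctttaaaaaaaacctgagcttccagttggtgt
Ifit3 stood at 18.2 CPM in skin against 161 in the node and Ifit1 at 22.5 CPM in skin against 157 in the node, values that are uncertain because the Ifit genes share sequence. Each window held 2. The element was found in 2.78% of all windows, in 6.43% of genes called lower, 3.5% of those called higher, 13 of 36 interferon targets and 8 of 10 guanylate binding and immunity-related GTPases with a window. None of 8 Gimap windows held it.

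The Gimap GTPases, lymphocyte proteins of survival and trafficking that lie side by side on chromosome 6, were lower in skin as a whole family. All 8 measured members were called lower, with a median log2 ratio of -1.80, and their values are uncertain where reads could be split between relatives. Gimap1 stood at 91.1 CPM in skin against 289 in the node, Gimap4 at 54.1 CPM in skin against 255 in the node, Gimap6 at 50.7 CPM in skin against 196 in the node and Gimap3 at 55 CPM in skin against 208 in the node. Gimap5, Gimap7, Gimap8 and Gimap9 were 2.49-fold, 13-fold, 3.2-fold and 2.97-fold lower. In GRCm38, Gimap4 lies at 48684549 to 48692060 and Gimap3 at 48764464 to 48770851. Summed over the family, skin held 332 CPM and the node 1197, a ratio of 0.278; it was 0.285 in cells with stimulation counts, 0.305 in cells without and 0.276 without interferon-responding cells. At equal depth 42.2% of skin cells and 85.1% of lymph node cells held any Gimap count.

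Other families with medians below that of all genes included the Schlafens, with 4 of 4 measured members called lower (median log2 ratio -2.02). Of the Ifit and Ifitm genes, 6 of 9 were called lower and 1 higher (median -2.37). The summed CPM of the Ifit and Ifitm genes nevertheless differed little, at 1561 in skin and 1583 in lymph node. The TRIM proteins had 12 of 29 called lower and 1 higher (median log2 ratio -0.77). Slfn2, which keeps T cells quiescent, stood at 218 CPM in skin against 619.8 in the node, and Slfn1 at 10.3 CPM in skin against 106 in the node, both uncertain because of shared sequence. Trim30a and Trim12a were 3.86-fold and 2.55-fold lower, the first also uncertain.

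**Figure D2:**
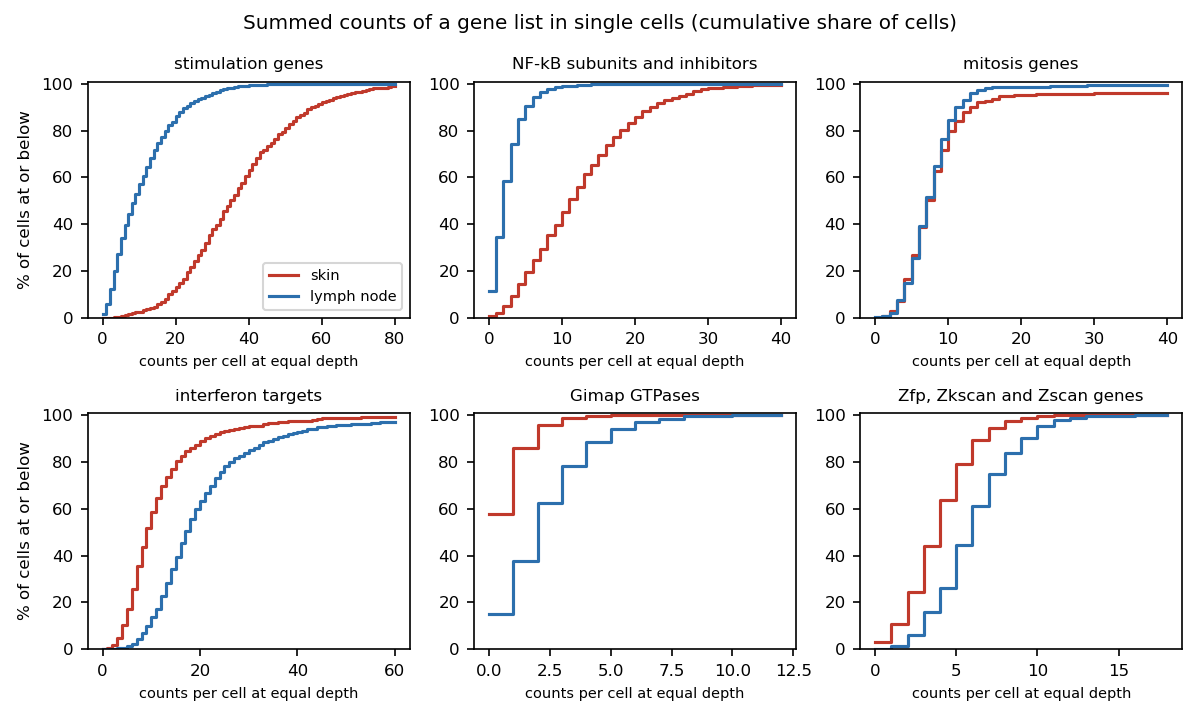
Share of cells (vertical axis, cumulative percent) with at most the given summed counts of a list at equal depth (horizontal axis), for skin (red) and lymph node (blue). Skin curves lie to the right for stimulation and NF-kB genes and to the left for interferon targets, Gimap GTPases and zinc finger genes, while for mitosis the curves overlap except in a minority of skin cells with many counts.

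Ribosomal protein genes were lower in skin by a small and even amount. Of 82 genes, 80 had a ratio below 1 and 1 was called lower, with a median log2 ratio of -0.39. Their sum was 180255 CPM in skin and 235920 in lymph node, the largest share of the counts of any list, so that a shift in it moves the CPM of other genes. Under the size factor the median was -0.20. Mitochondrial ribosomal proteins gave 10 calls lower and 0 higher of 76 (median -0.32, and -0.13 under the size factor). Their share called lower, 13.2%, was near the 9.86% of all measured genes.

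Zinc finger transcription factor genes, taken as symbols that begin with Zfp, Zkscan or Zscan without Zfp36 and its relatives, were mostly lower in skin. Of 184 measured genes, 65 were called lower and 2 higher, with a median log2 ratio of -0.79. Many encode DNA-binding proteins that silence transposable elements. Zkscan6 stood at 1.82 CPM in skin against 13.5 in the node, Zfp260 at 11.2 CPM in skin against 36 in the node and Zfp512 at 10.3 CPM in skin against 28.9 in the node. Because low genes were more often lower in skin, genes were compared at like levels. At a mean of 5 to 10 CPM, 69 zinc finger genes had a median log2 ratio of -0.95 and 44.9% were called lower, against -0.29 and 16.5% for 1434 other genes. At 20 to 50 CPM the values were -0.44 and 16.7% for 36 zinc finger genes, and -0.23 and 6.83% for 2285 others. Under the size factor 50 were called lower, and within cells with stimulation counts 28 were. Over all 8247 genes measured in the cells with stimulation counts, 625 were called lower, and fewer cells limit what can be called.

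**Figure D3:**
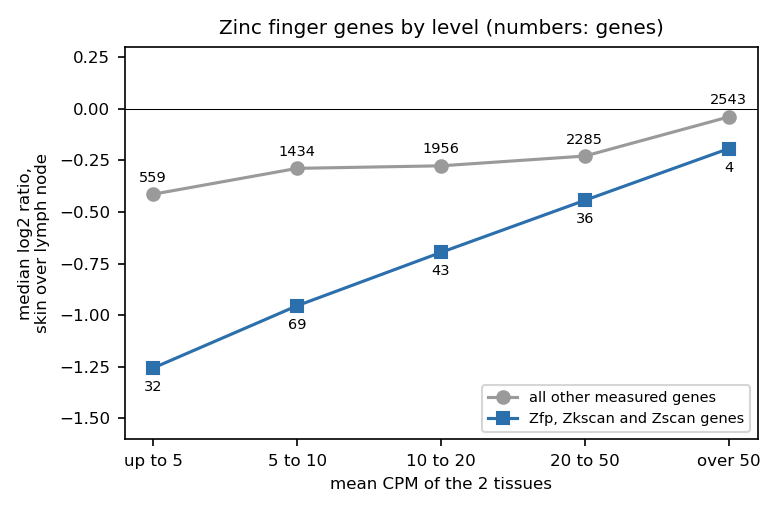
Median log2 ratio, skin over lymph node, of zinc finger genes (blue squares) and of all other measured genes (grey circles) in bands of mean CPM, with the number of genes at each point. The zinc finger median lies below that of other genes in each of the 5 bands, and the top band holds 4 zinc finger genes.

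Genes outside the lists with the ratios farthest from equality, among those at 50 CPM and in 10% of cells of the higher tissue, were of mixed function. Vps37b, a subunit of the sorting complex that sends receptors to lysosomes, stood at 888 CPM in skin against 64.2 in the node, 13.8-fold higher (12.3 to 15.6). Tppp3 was 34.4-fold higher (20.2 to 63.6) and Phlda1 17.8-fold higher (14.2 to 22.5). Errfi1, a feedback inhibitor of the epidermal growth factor receptor, was 11.4-fold and Mxd1, which opposes Myc, 10.5-fold higher. Prr7, Fam110a, Crip2, Gem and Ifrd1 completed the higher set at 12.7-fold, 11.3-fold, 9.39-fold, 7.56-fold and 6.77-fold. Besides Gimap genes, the lower set held Limd2 at 167 CPM in skin against 545 in the node, Fam78a at 29.8 CPM in skin against 102 in the node, and Ifit1bl1, BC094916, Plekhf1 and Rpp25l at 15.2-fold, 7.05-fold, 4.81-fold and 3.87-fold lower.

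**Figure D4:**
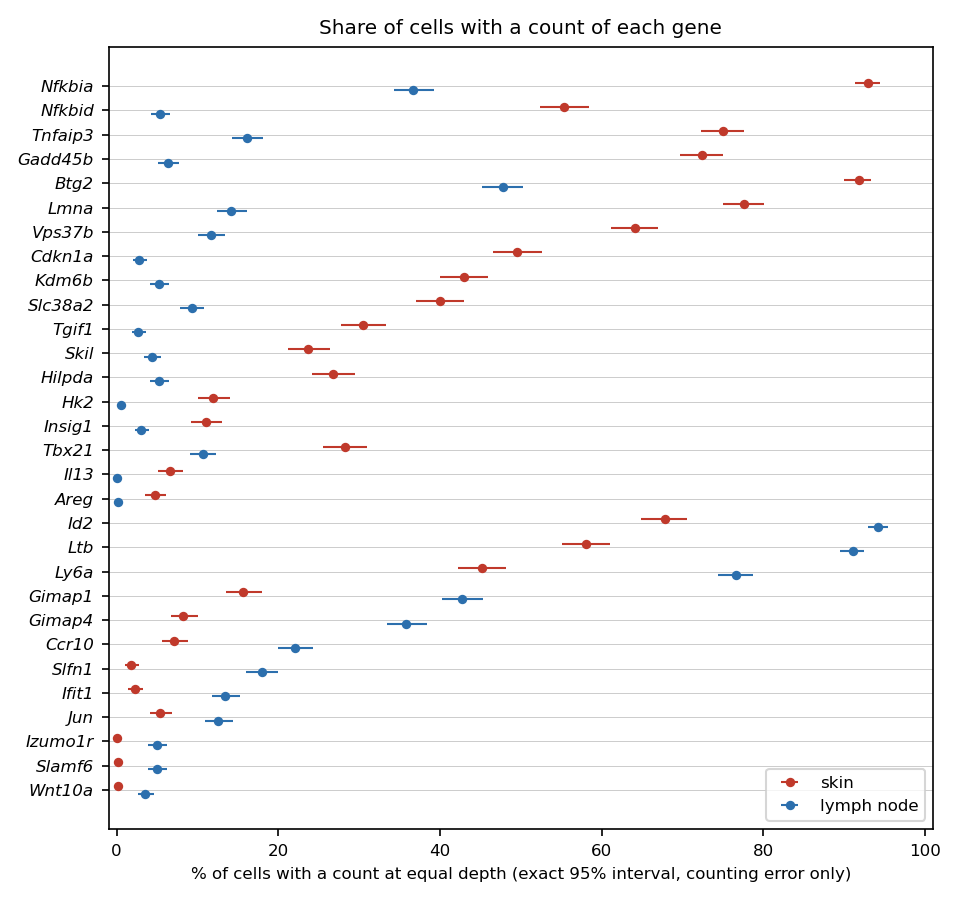
Percent of cells with a count of each gene after every cell was thinned to 1898 counts, for 1080 skin cells (red) and 1487 lymph node cells (blue), with exact 95% intervals for counting error. Nfkbia, Btg2 and Lmna were found in over 75% of skin cells, whereas Il13, Areg and Hk2 were found in under 15% of skin cells.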

How the data were processed

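Single-cell gene expression was taken from 1 deposited table of counts. The authors deposited whole-number counts per gene and cell, and their processing notes name Bowtie, RSEM and the build mm10, without versions. Not given in the sources used here are the use of molecule identifiers, the strand in counting and the filters on genes or cells. Column names gave the tissue, and 0 columns lacked one.

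Pooled counts of each tissue were scaled to 1000000 to give CPM, and where a tissue had 0 counts of a gene, 3 counts were assumed. Intervals of ratios came from the conditional binomial and those of shares from Clopper-Pearson (SciPy 1.17.1). Because each tissue is 1 library, no p-value is given. Where a share was 0, the share that 3 of the cells examined would make is given, which is not a Clopper-Pearson limit. Shares and counts per cell given as at equal depth were taken after thinning each cell to 1898 counts, the 10th percentile of cells, which left out 144 skin and 138 lymph node cells. On counts simulated with counting noise alone, the rule called 100% of 4-fold changes and 0.458% of unchanged genes. The simulation held no variation between cells, mice, libraries or preparations, so these are not error rates for the calls reported here.

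The gene lists, families and cells compared were chosen with earlier results of these data known. In each list the called genes with the interval bound farthest from equality, up to 5 in each direction, and the gene with the highest CPM could be named, with other members where their role was needed. Outside the lists, 10 genes were named in each direction, among those that reached 50 CPM and 10% of cells in the higher tissue. Scrublet called doublets, which were kept. Promoter sequences and starts came from RefSeq on GRCm38.p6, and other positions from GENCODE M21. In all, 12 other settings were tried, 1 of them chosen after seeing the data.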

Additional observations from a re-analysis of the deposited data

How the results depend on the processing

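Among the 12 settings tried, the count of genes called in either direction stayed within 1.5 times the reported one except in 3. With a minimum of 100 summed counts, 304 genes were called higher and 431 lower, of 6230. With the size factor 588 were called lower and 635 higher, and the higher share of all calls moved from 35.8% to 51.9%. With only the 33 skin and 1342 lymph node cells without stimulation counts, 232 were called higher and 93 lower, where fewer cells limit what can be called. In those cells 9 named genes pointed the other way, with log2 ratios of 1.42 for Bcl2, 1.26 for Zc3h12d, 0.67 for Il15ra, 0.15 for Zfp260, 0.014 for Zkscan6, -0.040 for Mt1, -0.43 for Tbx21, -0.79 for Fdps and -1.39 for Hspa1a. The cause was not tested. In the other settings no named gene reversed, and 3 of the genes called with all cells were called the opposite way, all in those 33 skin cells.

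Without the cell that held most counts of each gene, 494 genes were called higher and 964 lower. No paired analysis was possible because each tissue is 1 library and its columns carry no replicate number, so leaving out a replicate was not possible either. With no replicates, differences between mice are not covered. Skin depth of 3292210 counts limits genes near 1 CPM to few counts.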
